A study of Mus musculus with 6 samples.

Results

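The flavin-containing monooxygenases Fmo1, Fmo2, Fmo4 and Fmo5 were described in mouse liver, as 4 of the 56674 gene rows of a read count table, taken by gene symbol. All 4 had counts in every library and all 4 passed the filter on low counts, which 18284 rows passed. The livers came from C57BL/6 mice, an inbred strain, all male and 71 weeks old. Of the 6 samples, 3 are controls on normal chow and 3 are from mice whose chow held polypropylene microplastic (PP-MP), and the question of the series is whether long exposure changes gene expression in liver. No genetic modification is named, and the labels used here state no dose, no particle size and no duration of the PP-MP diet. The treatment protocol reads PS-MP in all 6 records, and the groups follow the sample titles, which name PP-MP or normal food. The labels do not say that samples of a group came from separate animals, so the p-values cover the spread among these libraries, which may be technical.

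Flavin-containing monooxygenases sit in the membrane of the endoplasmic reticulum, carry FAD, and use NADPH and oxygen to oxygenate nitrogen and sulfur atoms of drugs, dietary amines and some endogenous compounds. They work beside the cytochromes P450 and, unlike them, take electrons directly from NADPH. In mouse liver Fmo1 and Fmo5 are known as the abundant forms of adult males. Fmo5 differs from the rest of the family in catalysing Baeyer-Villiger oxidation of ketones, Fmo2 is best known as the lung form, and Fmo4 is a minor form.

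In GENCODE M21, an annotation of the GRCm38 build, Fmo1, Fmo2 and Fmo4 lie on the minus strand of chromosome 1 and Fmo5 on the plus strand of chromosome 3. No exon of these 4 genes overlaps an exon of another gene model there. The mapping used GRCm39, so no gene coordinates are given from that annotation. Because a count for one gene could come from reads of a similar one, the coding sequences were aligned. Fmo1 has 1596 coding bases, Fmo2 1605, Fmo4 1680 and Fmo5 1599. Nucleotide identity was lowest between Fmo4 and Fmo5, at 58.0% of 1582 aligned bases, and highest between Fmo2 and Fmo5, at 61.8% of 1572. The longest identical run between any of these 6 pairs was 24 bases, between Fmo1 and Fmo5. Coding transcripts of the 4 genes shared 0 stretches of 50 bases. Over the whole alignment 38.0% of 1558 positions without a gap were shared by all 4 genes.

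Library totals lay between 68357478 counts (control 2) and 112566641 counts (control 3). Control 2 and PP-MP 1 stood apart from the other libraries of their groups. Control 2 had the highest share of counts on the 18S ribosomal RNA gene Rn18s-rs5, 11.2%, and PP-MP 1 the highest summed level of acute phase transcripts. The Rn18s-rs5 share was also 2.92% in control 1 and 1.15% in control 3. In PP-MP 1, 2 and 3 it was 0.655%, 0.707% and 0.750%, so every control lay above every PP-MP library. Hepatocyte markers were present at a summed 65133 to 80949.9 CPM (read counts scaled to a common library total) over 7 genes measured (Alb, Ttr, Apoa1, Apob, Fgb, Serpinc1 and Ahsg), which matches the labelled tissue. Levels below are CPM scaled with TMM factors, which correct library totals for differences in composition. The factors were 0.957, 0.882 and 0.929 in control 1, 2 and 3, against 1.10, 1.12 and 1.03 in PP-MP 1, 2 and 3. They too did not overlap between the groups, and the part of these differences in the fold changes was not tested.

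**Figure D1:**
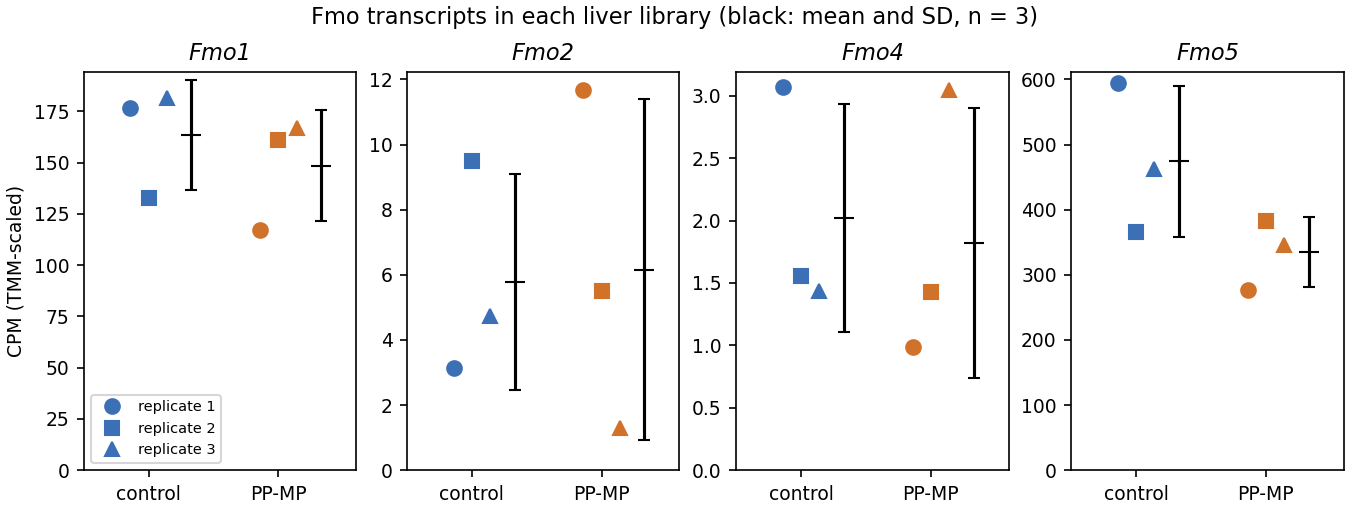
CPM of Fmo1, Fmo2, Fmo4 and Fmo5 in each of the 6 liver libraries, with blue for control, orange for PP-MP, symbols for replicate numbers and black bars for mean and SD (n = 3 per group). The groups overlap for each of the 4 genes. Fmo5 has the highest levels, and Fmo2 the widest spread within a group as a ratio, from 1.29 to 11.7 CPM in PP-MP.

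Fmo5 had the most counts of the family. Its level was 595, 365 and 462 CPM in control 1, 2 and 3, against 276, 382 and 346 CPM in PP-MP 1, 2 and 3. PP-MP 1 was the lowest library and control 1 the highest, and the groups overlapped because control 2 lay below PP-MP 2. The means were 474 ± 115 CPM for control against 335 ± 53.8 CPM for PP-MP (SD, n = 3 per group), which is −0.50 on the log2 scale (SE 0.23, 95% interval −1.05 to 0.05). This difference missed the threshold of 0.05 (edgeR quasi-likelihood adjusted p = 0.39, unadjusted p = 0.067), and 3107 genes had a p as small or smaller. Fmo5 stood at place 268 by mean CPM among the 18284 genes tested.

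Fmo1, the other abundant form, oxygenates a broad range of drugs and also hypotaurine, which gives taurine. Its level was 177, 133 and 181 CPM in control 1, 2 and 3, against 117, 161 and 167 CPM in PP-MP 1, 2 and 3. PP-MP 1 and control 2 were the low libraries of their groups, and the other 4 lay within 161 to 181 CPM. The means were 164 ± 26.8 and 149 ± 27.2 CPM (SD, n = 3 per group), and the log2 fold change was −0.14 (SE 0.20, edgeR adjusted p = 0.78). The 95% interval of the fold, 0.650 to 1.27, lay within 2-fold in either direction.

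Fmo2 was scarce and, on the log2 scale, varied more within groups than the other 3 members. Its level was 3.13, 9.49 and 4.73 CPM in control 1, 2 and 3, against 11.7, 5.50 and 1.29 CPM in PP-MP 1, 2 and 3. PP-MP held both the highest and the lowest library, 9.09-fold apart, with raw counts of 1179 and 133. The group means were nearly level, 5.78 ± 3.31 and 6.16 ± 5.23 CPM (SD, n = 3 per group), and the log2 fold change was 0.09 (SE 0.77, edgeR adjusted p = 0.97). The 95% interval of the fold ran from 0.300 to 3.79, so a change of 2-fold in either direction was not detectable. The SD of log2 CPM within groups was 1.27, larger than in 95.5% of the 4106 genes with a mean CPM within 2-fold of that of Fmo2, whose median SD was 0.29.

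Fmo4 was the lowest member. Its level was 3.07, 1.56 and 1.43 CPM in control 1, 2 and 3, against 0.991, 1.43 and 3.04 CPM in PP-MP 1, 2 and 3. One library in each group, control 1 and PP-MP 3, lay about level and well above the rest. The means were 2.02 ± 0.912 and 1.82 ± 1.08 CPM (SD, n = 3 per group), and the log2 fold change was −0.15 (SE 0.51, edgeR adjusted p = 0.92) and a 95% interval of the fold of 0.389 to 2.09.

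Thus edgeR called 0 of the 4 genes, against a background of 0.0109% of all genes tested (2 of 18284). At an unadjusted p under 0.05 edgeR gave 0 of the 4, against 13.9% of all genes, and 0 of the 4 had groups without overlap, against 22.0% of all genes. DESeq2 called 0 of the 4, against 4.25% of all genes, and gave Fmo5 an unadjusted p of 0.046 (adjusted p = 0.29), and limma-voom called 0. Fmo5 had a lower fitted value in PP-MP under all 16 alternative settings tried, from −0.64 to −0.28 on the log2 scale, with an adjusted p from 0.18 (without control 2) to 0.67 (without PP-MP 1). The sign of the other 3 members depended on the setting. With scaling by library totals alone, which moved the median of all genes from 0.03 to 0.26, the log2 fold changes of Fmo1 and Fmo4 turned to 0.09 and 0.05, and relative to that median they were at −0.18 and −0.21.

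**Figure D2:**
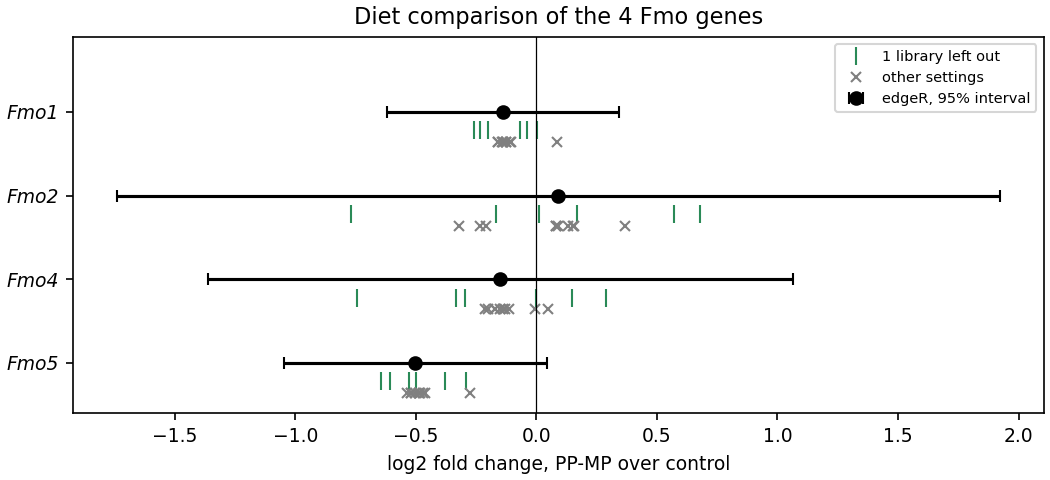
Log2 fold change of PP-MP over control for the 4 genes from edgeR, with black points and bars for the estimate and its 95% interval. Green ticks show the estimate with 1 library left out and grey crosses the other settings. Each 95% interval includes 0, and all Fmo5 estimates lie below 0, between −0.64 and −0.28.

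Fmo6 and Fmo9 had 0 counts in all 6 libraries, and 3 counts, the limit that a count of 0 allows, correspond to 0.0267 to 0.0439 CPM of the library total. That limit covers counting error only.

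Levels were compared between genes per length. Per kilobase of the longest coding transcript, Fmo5 stood at 91.2 ± 22.2 CPM for control against 64.4 ± 10.4 CPM for PP-MP, and Fmo1 at 68.5 ± 11.2 and 62.2 ± 11.4 CPM (n = 3 per group, SD). These 2 neighbours in the order did not differ beyond their spread in PP-MP, and in PP-MP 3 Fmo1 was above Fmo5, at 69.9 against 66.6 CPM per kilobase. The Fmo5 value depends on the transcript assumed, since its longest coding transcript has 5197 bases and the shortest with the full coding sequence has 2453. Per kilobase of coding sequence Fmo5 was above Fmo1 in every library, with means of 296 and 103 CPM in control and 209 and 93.1 CPM in PP-MP. Fmo2 (1.42 ± 0.814 and 1.51 ± 1.29 CPM per kilobase of transcript) and Fmo4 (0.754 ± 0.340 and 0.679 ± 0.403 CPM) overlapped, and Fmo4 was above Fmo2 in control 1 and PP-MP 3. Per kilobase of coding sequence Fmo4 was above Fmo2 in PP-MP 3 only, at 1.81 against 0.801 CPM, and in control 1 Fmo2 was at 1.95 and Fmo4 at 1.83 CPM.

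The balance of Fmo1 and Fmo5 within a library does not depend on the scaling between libraries. Fmo5 took 76.5%, 71.7% and 71.1% of all Fmo counts in control 1, 2 and 3, against 68.0%, 69.4% and 66.9% in PP-MP 1, 2 and 3. Every PP-MP library lay below every control library, and the widest 95% Wilson interval spanned 0.507 percentage points on each side, which covers counting error within a library only. Fmo1 took 22.7% to 27.9% in control and 28.9% to 32.3% in PP-MP. The log2 ratio of Fmo1 to Fmo5 counts was −1.75, −1.46 and −1.35 in control 1, 2 and 3, against −1.24, −1.24 and −1.05 in PP-MP 1, 2 and 3. The mean ratio was 0.34 higher on the log2 scale in PP-MP (exact permutation p = 0.1, two-sided, which is the lowest value possible with 3 against 3; Benjamini-Hochberg adjusted p = 0.6 over 6 pairs of members). Leaving out 1 library gave 0.23 to 0.43, the lowest without control 1. The other 5 pairs had exact permutation p of 0.7 to 1.

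**Figure D3:**
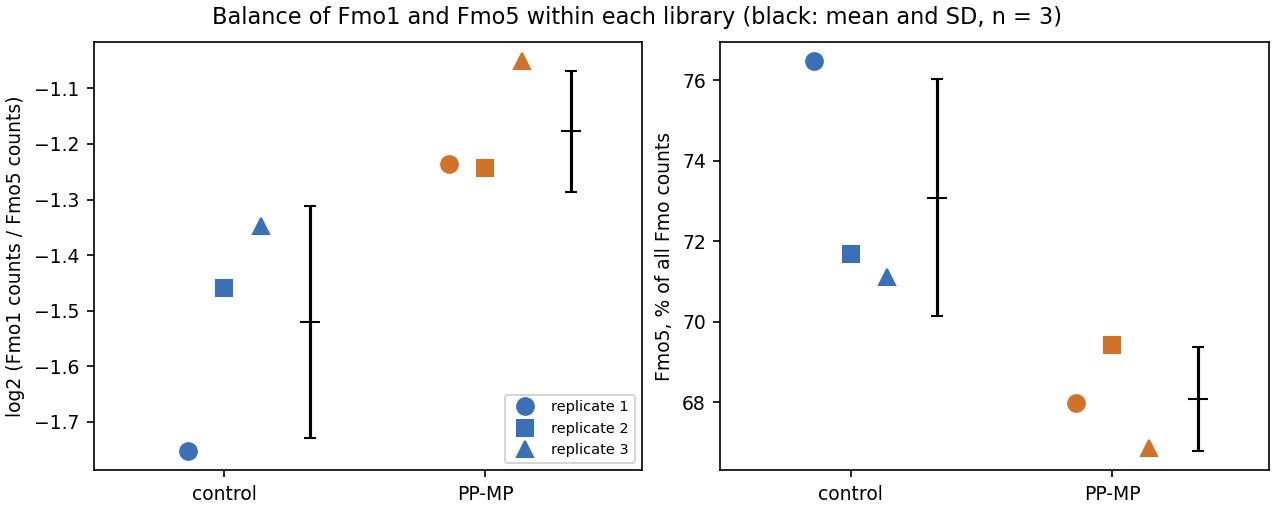
Log2 ratio of Fmo1 to Fmo5 counts (left) and Fmo5 as a percent of all Fmo counts (right) in each library, with black bars for mean and SD (n = 3 per group); neither axis starts at 0. The ratio is higher in all 3 PP-MP libraries (−1.24 to −1.05) than in the controls (−1.75 to −1.35), and the Fmo5 share is lower (66.9% to 69.4% against 71.1% to 76.5%).

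Within groups the members did not all vary alike. Fmo2 was highest in PP-MP 1 and control 2, the libraries in which Fmo1 was lowest, and lowest in PP-MP 3 and control 1, the libraries in which Fmo4 was highest. Across the 6 libraries log2 CPM of Fmo2 and Fmo4 had Pearson's r = −0.87 (exact permutation p = 0.032, adjusted p = 0.18 over 6 pairs) and Spearman's rho = −0.77 (exact permutation p = 0.10, adjusted p = 0.21). Without PP-MP 1 and PP-MP 3, the libraries with Fmo2 farthest from its median, r was −0.68, and within control and PP-MP it was −0.72 and −0.9998 (3 libraries each). Fmo1 and Fmo5 had r = 0.78 (exact permutation p = 0.061, adjusted p = 0.18) and rho = 0.77 (exact permutation p = 0.10, adjusted p = 0.21), with 0.81 and 0.92 within control and PP-MP and 0.70 without PP-MP 1 and control 2. Fmo1 and Fmo2 had r = −0.73 (exact permutation p = 0.10, adjusted p = 0.21) and rho = −0.77 (exact permutation p = 0.10, adjusted p = 0.21), which rested on PP-MP 1 and control 2, since r was 0.12 without them, although it was −0.90 within control and −0.82 within PP-MP (3 libraries each). Fmo1 and Fmo4 had r = 0.64 (0.34 within control and 0.80 within PP-MP), and Fmo4 and Fmo5 had r = 0.58 (0.82 and 0.52). Fmo2 and Fmo5 had r = −0.36, with −0.99 within control and −0.54 within PP-MP (3 libraries each). None of the 6 relations passed after adjustment, and they were examined after the values had been seen.

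**Figure D4:**
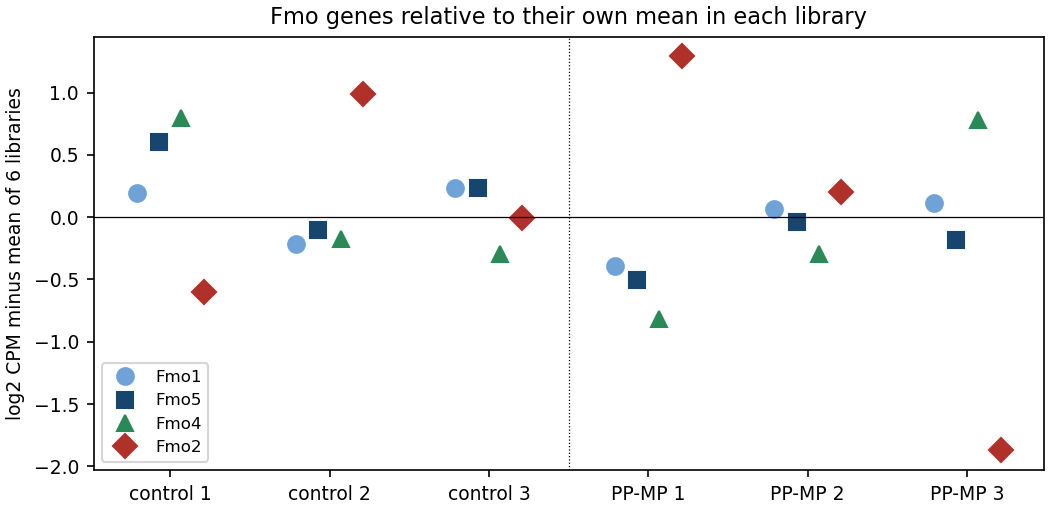
Log2 CPM of each member minus its own mean over the 6 libraries, with 1 symbol per gene and a dotted line between control and PP-MP. Fmo2 (red diamonds) lies highest in control 2 and PP-MP 1 and lowest in control 1 and PP-MP 3, where Fmo4 (green triangles) lies highest.

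Marker levels of other cells and zones differed between the same libraries. In whole liver RNA, fewer cells of a type and less RNA per cell cannot be told apart. Cholangiocyte markers, of which 5 of 6 were tested and 0 passed, summed to 12.0, 26.9 and 16.4 CPM in control 1, 2 and 3, against 22.9, 17.6 and 12.4 CPM in PP-MP 1, 2 and 3. By summed level they were highest in the 2 libraries with the most Fmo2. Krt19, Krt7 and Sox9 were also highest in these 2 libraries, whereas Spp1 and Epcam were highest in control 2 and PP-MP 2. Spp1, the largest part of the sums, was at 9.48 CPM in PP-MP 1 and 12.8 CPM in PP-MP 2. Pericentral hepatocyte markers (Glul, Oat, Cyp2e1 and 5 others, 0 of 8 past the threshold) summed to 12757, 6889 and 11431 CPM in control 1, 2 and 3, against 4967, 10178 and 9567 CPM in PP-MP 1, 2 and 3, so by summed level they were lowest in the 2 libraries with the least Fmo1. The mean log2 level of the same 8 markers, which gives each gene equal weight, ordered the libraries otherwise: relative to the control mean PP-MP 1 stood at −0.67, PP-MP 3 at −0.60 and control 2 at −0.34. Acute phase transcripts summed to 5849 to 8018 CPM across the controls, against 34174, 8476 and 6928 CPM in PP-MP 1, 2 and 3. PP-MP 1, the library with the most of these, had the least Fmo1, Fmo4 and Fmo5 and the most Fmo2. Kupffer cell markers ranged from 80.2 to 106 CPM among controls and from 95.1 to 314 CPM among PP-MP libraries, and neutrophil markers from 1.18 to 1.75 CPM and from 3.07 to 23.5 CPM. Sinusoidal endothelial markers ranged from 101 to 127 CPM and from 96.1 to 161 CPM in the same order, stellate cell markers from 300 to 307 CPM and from 271 to 437 CPM, and periportal markers from 5411 to 6881 CPM and from 5959.9 to 7794 CPM. Of the tested markers, 4 of 6 for Kupffer cells, 4 of 4 for neutrophils and 5 of 10 of the acute phase were higher in PP-MP at an unadjusted p under 0.05, against 8.05% of all genes. Without PP-MP 1 these counts were 3, 2 and 0. The acute phase count was also 0 without control 2, without control 3 and with limma-voom, and the Kupffer count was 1 without control 2 and with the replicate block. After adjustment edgeR called 0 of the markers. DESeq2 called 5 of the 68 markers listed, not all of which were tested, against 4.25% of all genes. Of these 5, Timd4 and Adgre1 (Kupffer cell), S100a8 (neutrophil) and Apoa1 (hepatocyte) were higher and Cyp2f2 (periportal) was lower. DESeq2 gave no adjusted p to S100a9 (neutrophil) or to Saa1, Saa2, Orm2 and Lcn2 (acute phase), so it could not call these. None of the marker lists was at 0. The part of these cells and zones in the Fmo values was not tested. Without PP-MP 1 the log2 fold change of Fmo5 was −0.38 (SE 0.24) and that of Fmo2 −0.77 (SE 0.75). Without control 2 and PP-MP 1 together the log2 fold changes were −0.12 for Fmo1, −0.21 for Fmo2, −0.01 for Fmo4 and −0.54 for Fmo5.

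The stretch before the Fmo2 start site is shown because Fmo2 differed most between libraries as a ratio. The RefSeq table used here holds 2 start sites for Fmo2, and only the more upstream one was used. The sequence holds the 250 bases before that start in GRCm38.p6, chr1:162898759-162899008, minus strand, with a match to a C/EBP type site in capitals.
Fmo2: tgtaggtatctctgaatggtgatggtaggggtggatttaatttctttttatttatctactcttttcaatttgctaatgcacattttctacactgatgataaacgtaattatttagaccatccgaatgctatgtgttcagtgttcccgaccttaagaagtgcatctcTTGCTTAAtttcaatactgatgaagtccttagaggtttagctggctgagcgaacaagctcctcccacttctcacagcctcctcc
A set of 4 motifs, chosen with the values known, were searched on both strands: TATAAA (the core of a TATA box), the sequence AGGTCA (a nuclear receptor core site), TTCNNNGAA (a STAT type site) and TTGCNNAA (a C/EBP type site). The last had 1 match, starting 84 bases before the start site, and 9.56% of 32851 promoter windows of the same length hold at least 1. The other motifs had 0 matches, and 12.4%, 14.02% and 7.02% of windows hold them. A match is a description of the letters and says nothing about binding.

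Around the Fmo reaction and neighbouring microsomal oxidation, 51 genes in 7 lists were examined and 50 were tested. The list around microsomal electron transfer is counted here although the Fmo enzymes take electrons directly from NADPH. EdgeR called 0 of the 50. Fitted values were lower for 35 of the 50, against 47.4% of all genes. At an unadjusted p under 0.05, 14 were lower and 2 higher in PP-MP, against 5.81% lower and 8.05% higher among all genes, and 15 were lower without overlap of the groups, against 9.79%. The median log2 fold change was −0.20, against 0.03 over all genes tested. The lists were chosen with earlier results of these data known, so these shares are a description and no independent support. The count of 14 fell to 7 without PP-MP 1, to 9 without control 1, control 3 or PP-MP 3, was 11 without control 2 and PP-MP 1 together, and fell to 6 with library totals, where 5 were higher. With library totals the list medians, in the order of the paragraphs that follow, were −0.50, −0.14, 0.27, 0.13, 0.06, −0.10 and 0.17, beside a median of 0.26 over all genes, so the sign turned for 3 lists and the values moved with that of all genes. DESeq2 called 6 of the 50, all lower (Cyb5r3, Cyb5b, Tkt, Me1, Csad and Aox1), against 1.87% of all genes.

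The list around microsomal electron transfer (Por, Cyb5a, Cyb5r3, Cyb5b and Pgrmc1) had 5 of 5 fitted values lower and 3 at an unadjusted p under 0.05. Its median of −0.76 is the value of Por (SE 0.74), whose groups overlapped, and it was −0.39 without PP-MP 1 and −0.45 without control 3. Cyb5r3, the cytochrome b5 reductase, was at 723, 431 and 599 CPM in control 1, 2 and 3, against 233, 328 and 317 CPM in PP-MP 1, 2 and 3 (log2 fold change −0.998, SE 0.24, edgeR adjusted p = 0.22). Every PP-MP library was below every control. Cyb5b, a cytochrome b5 of the mitochondrial outer membrane, was at 364 ± 26.3 and 207 ± 54.7 CPM (edgeR adjusted p = 0.25), and Pgrmc1, a haem-binding partner of P450 enzymes, at 1362 ± 189 and 915 ± 212 CPM (edgeR adjusted p = 0.35; SD, n = 3 per group). Por, which supplies electrons to the P450s but not to the Fmo enzymes, ranged from 93.9 to 408 CPM across controls and from 57.6 to 278 CPM across PP-MP libraries.

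In the list around supply of NADPH, the electron donor of Fmo enzymes, 8 of 10 fitted values were lower, with a median of −0.37. An unadjusted p under 0.05 was found for 5, all lower. The list also holds genes that do not make NADPH themselves, Tkt among them. G6pdx and Slc37a4 were higher, with log2 fold changes of 0.48 (SE 0.27, edgeR adjusted p = 0.47) and 0.67 (SE 0.40, edgeR adjusted p = 0.49). Tkt, the transketolase of the pentose phosphate pathway, was at 136 ± 36.3 CPM for control against 70.7 ± 14.4 CPM for PP-MP (log2 fold change −0.94, SE 0.25, edgeR adjusted p = 0.24). Me1, the cytosolic malic enzyme, was at 225 ± 98.8 and 79.8 ± 28.04 CPM (edgeR adjusted p = 0.24), and Idh1, the cytosolic isocitrate dehydrogenase, at 287 ± 26.2 and 198 ± 25.4 CPM (edgeR adjusted p = 0.26; SD, n = 3 per group). The difference in Me1 was known from earlier work on these data when the list was made.

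Genes of riboflavin uptake and FAD synthesis had a median of 0.03, with 2 of 5 lower. Rfk, the riboflavin kinase, was lower in every PP-MP library, at 31.4 ± 1.87 CPM for control against 25.7 ± 0.931 CPM for PP-MP (log2 fold change −0.29, SE 0.12, edgeR adjusted p = 0.35). Flad1, which makes FAD from the product of Rfk, differed by 0.21 on the log2 scale (SE 0.18, edgeR adjusted p = 0.63), and Slc52a3, a riboflavin transporter, was near the limit of detection at 0.0677 to 0.335 CPM.

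Among 5 tested genes of hypotaurine and taurine synthesis the median was −0.10. Csad, which makes hypotaurine, a substrate of Fmo1, was at 496, 344 and 488 CPM in control 1, 2 and 3, against 178, 207 and 309 CPM in PP-MP 1, 2 and 3 (log2 fold change −0.94, SE 0.26, edgeR adjusted p = 0.25). The groups did not overlap. Ado, a cysteamine dioxygenase, had a log2 fold change of −0.18 and Slc6a6, the taurine transporter, of 0.33.

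Enzymes that reduce N- and S-oxygenated compounds had a median of −0.17, with 5 of 6 lower. Msra, a methionine sulfoxide reductase, was at 176 ± 29.8 and 114 ± 25.2 CPM (log2 fold change −0.63, SE 0.22, edgeR adjusted p = 0.32; SD, n = 3 per group). Msrb3, a methionine sulfoxide reductase of another type, was higher in every PP-MP library (log2 fold change 0.70, SE 0.30, edgeR adjusted p = 0.37). Mtarc1, which reduces N-hydroxylated compounds, had a log2 fold change of −0.19.

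Other oxidases of drugs and amines had a median of −0.32, with 5 of 7 lower. Aox1, an aldehyde oxidase, was at 113 ± 8.94 CPM for control against 54.8 ± 18.7 CPM for PP-MP (log2 fold change −1.04, SE 0.27, edgeR adjusted p = 0.23; SD, n = 3 per group). Maoa, a monoamine oxidase, was at 12.1 ± 1.02 and 8.41 ± 1.67 CPM (edgeR adjusted p = 0.32), and Paox, a polyamine oxidase, had a log2 fold change of −0.32 (SE 0.19).

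Transcription factors with a reported role at Fmo genes were evenly divided, 6 of 12 lower and 6 higher, with a median of −0.05. Ahr, the aryl hydrocarbon receptor, was at 29.7 ± 4.98 CPM for control against 44.3 ± 7.15 CPM for PP-MP (log2 fold change 0.58, SE 0.18, edgeR adjusted p = 0.29; SD, n = 3 per group), and every PP-MP library was above every control.

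**Figure D5:**
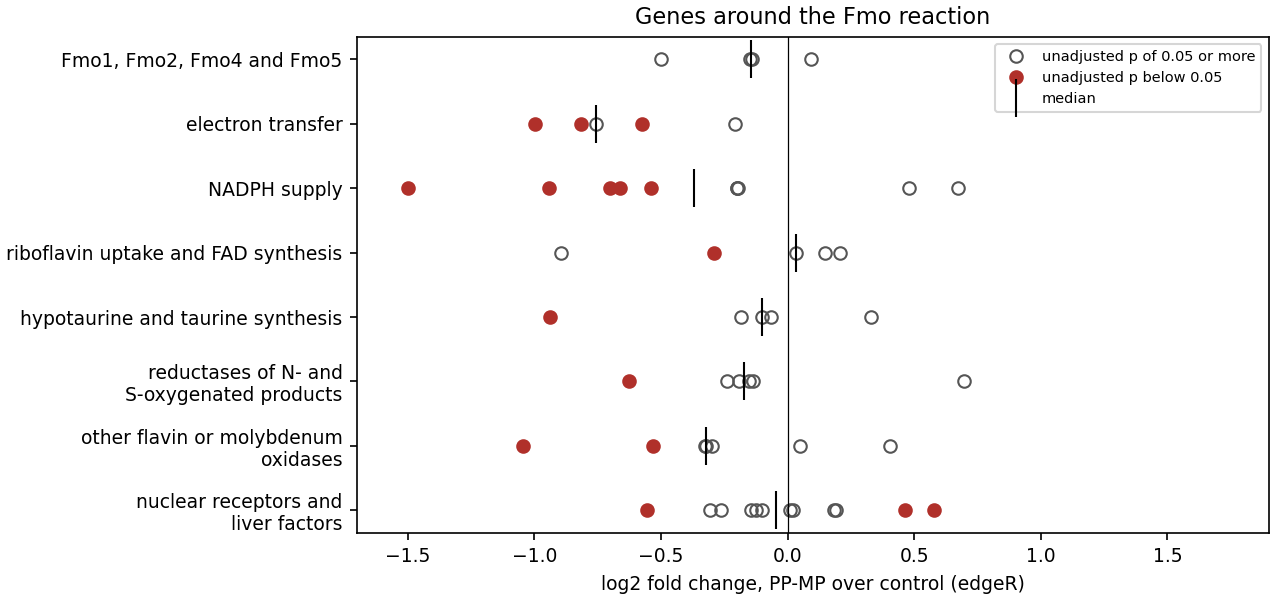
Log2 fold change of PP-MP over control (edgeR) for the 4 Fmo genes and each tested gene of the 7 lists, with filled points for an unadjusted p below 0.05 and black ticks for medians. Filled points on the left side are most numerous for electron transfer (3 of 5) and NADPH supply (5 of 10).

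Finally, the genes whose log2 CPM varied most like each member over the 6 libraries were listed, among 6378 or 6379 genes with a mean of at least 10 CPM. For Fmo1 these were Agmat (r = 0.999), Psmd13 (0.995) and Dctn2 (0.995), for Fmo5 Pomgnt1 (0.996), Rela (0.994) and Eif3c (0.994), for Fmo2 Ncoa2 (0.979), Leprot (0.970) and Zfp36l1 (0.961), and for Fmo4 Acad8 (0.980), Dhx38 (0.979) and Ilvbl (0.969). These values describe 6 libraries that share their scaling factors. No gene appeared for more than 1 member.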

How the data were processed

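Liver RNA of 6 samples (3 control, 3 PP-MP) was measured. Per the labels' protocols, poly(A) RNA was selected and libraries were made with a directional NEBNext kit. Per the submitters' processing notes, bcl2fastq and GRCm39 were used, while no source names the aligner, counter, strand setting or annotation. The deposited values are raw counts per gene, and 6 of 6 per-sample files equal their columns of the series table.

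Counts were filtered with filterByExpr, scaled with TMM and compared in edgeR 4.0.16 (R 4.3.3) by its quasi-likelihood F test, robust, two-sided and unpaired. P-values were adjusted by Benjamini-Hochberg across the 18284 genes, with 0.05 as threshold. Log2 CPM used a prior count of 2. Libraries of a group were no duplicates (chi-square per degree of freedom 154 to 928). Alternatives were other scalings and filters, DESeq2 1.42.0, limma-voom (limma 3.58.1), a replicate block and left-out libraries. Python 3.11.15, SciPy 1.17.1 and MAFFT 7.526 served for the rest. Gene lengths and transcripts are from GENCODE M21 and the promoter from RefSeq, which held rows for 3 of the 4 members. The members, lists and tests were chosen with earlier results of these data known. Of each list, up to 3 genes of smallest p are named, and Por, G6pdx and Slc37a4 were chosen after their values were seen. Also named are, for each member the 3 genes of highest r, leaving out predicted genes and pseudogenes. Some items that these rules would name are not reported here.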

Additional observations from a re-analysis of the deposited data

How the results depend on the processing

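The Fmo5 difference kept its direction and stayed short of the threshold under all 16 alternatives. Log2 fold changes with 1 library left out ran from −0.26 to 0.00 for Fmo1, −0.77 to 0.68 for Fmo2, −0.74 to 0.29 for Fmo4 and −0.64 to −0.29 for Fmo5, and the Fmo1 value of 0.0043 was without PP-MP 1. Signs turned for Fmo1 and Fmo4 with library totals (0.086 and 0.049), for Fmo2 with limma-voom (−0.23), with the replicate block (−0.32) and without control 2 and PP-MP 1 together (−0.21), and the cause was not tested. Genes called went from 2 to 1 with library totals, 777 with DESeq2, 1 with limma-voom, 0 with the replicate block and 0 to 92 with 1 library left out, the 92 without control 2. Called genes of the pathway lists went from 0 to 6 with DESeq2. The log2 ratio differences, with 1 library left out, ran from −0.86 to 0.99 (Fmo1 over Fmo2), −0.20 to 0.44 (Fmo1 over Fmo4), 0.23 to 0.43 (Fmo1 over Fmo5), −1.10 to 1.30 (Fmo2 over Fmo4), −0.61 to 1.14 (Fmo2 over Fmo5) and −0.16 to 0.49 (Fmo4 over Fmo5). Coding length in place of transcript length, which is shorter by construction, gave per kilobase 103 and 93.1 CPM for Fmo1, 3.60 and 3.84 for Fmo2, 1.20 and 1.08 for Fmo4 and 296 and 209 for Fmo5 (control and PP-MP). The labels do not say whether replicate numbers pair the samples. Deviations of same-numbered libraries correlated at −0.07, −0.09 and 0.05, against −0.07 to 0.12 for libraries with different numbers. Low correlations cannot exclude a pairing, and it was not tested. With 94 to 315 raw counts per library for Fmo4, the spread between libraries and not counting limited the precision.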
